A study of Mus musculus with 36 samples.

Results

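The 10 genes described here carry out or control antigen presentation by MHC class I. They are the heavy chains H2-K1, H2-D1, H2-Q5, H2-Q6, H2-Q7 and H2-T23, the light chain B2m, the transactivator Nlrc5, the peptide transporter subunit Tap1 and the immunoproteasome subunit Psmb8. They were found by symbol among the 38887 Ensembl identifiers of the count table, and all 10 passed the filter on low counts in both cell types. They were chosen by expression differences between genotypes in these same libraries, and the source does not state which values chose them. Comparisons between genotypes, and differences of those differences, are therefore given as a description; counts of genes called in them are printed as background, and nothing is read from them. Comparisons between the infused agents and between the cell types were tested (for the members, not between cell types in Il27ra+/+ after Ang II) by quasi-likelihood in edgeR, the p-values were adjusted over every gene above the filter, and a gene is called where the adjusted p is under 0.05.

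Bulk RNA-seq covered 36 libraries of sorted bone marrow cells, 5000 cells each: LT-HSC, the long-term hematopoietic stem cells gated as CD150+CD48− within Lin−Sca-1+c-kit+, and HPC-1, the CD150−CD48+ progenitors that the labels call ST-HSC. All mice were Apoe−/− on a C57BL/6 background and ate a Western diet for 12 weeks from 8 weeks of age. They differed in the gene for the IL-27 receptor, Il27ra+/+, Il27ra+/− or Il27ra−/−, and received PBS or angiotensin II (Ang II) at 800 ng/kg/min for 2 weeks. LT-HSC had 1, 3 and 3 libraries after PBS and 2, 4 and 4 after Ang II, in the order Il27ra+/+, Il27ra+/−, Il27ra−/−, and HPC-1 had 2, 3 and 3 after PBS and 3, 4 and 4 after Ang II. The deletion was present from birth in every cell, and the labels give no sex and no batch. The authors fitted sex as a factor, which the fit used here does not. The labels tie no library to a mouse, and the paper gives fewer mice than there are Ang II libraries for Il27ra−/− in both cell types and for Il27ra+/+ in HPC-1. Replicates may therefore not all be separate animals, and their spread may be technical. In bulk RNA, fewer cells that express a gene and less RNA per cell cannot be told apart.

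Library totals ran from 1980283 to 6861078 counts in LT-HSC and from 2272026 to 6318379 in HPC-1. After the filter, 16365 genes were tested in LT-HSC, 13199 in HPC-1 and 18013 between the cell types. Expression is given as CPM after TMM scaling. The lowest count of a member in any library was 18, for H2-Q5 in HPC-1, and no library had fewer than 148 counts of any other member.

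Il27ra itself, as a check of the genotype labels in LT-HSC after Ang II, measured 42.7 and 51.7 CPM in Il27ra+/+, 25.2 to 33.0 CPM in Il27ra+/− and 11.5 to 19.4 CPM in Il27ra−/−. After PBS the LT-HSC library labelled Il27ra+/+ measured 17.1 CPM, below the Il27ra+/− libraries (23.4 to 42.6 CPM) and next to the highest Il27ra−/− library (7.01 to 16.5 CPM). In HPC-1 the level was low, 4.64 to 16.6 CPM, and the genotypes overlapped, so there it does not check the labels.

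Markers of the 2 gates mostly followed the cell type labels. Summed over 10 LT-HSC markers (Slamf1, Procr, Mecom, Hlf, Fgd5 and Vwf among them), 16 of 17 LT-HSC libraries measured 1342 to 2981 CPM and the HPC-1 libraries 294 to 656 CPM. Summed over 6 multipotent progenitor markers (Cd48, Flt3, Cd34, Dntt, Cd27 and Satb1), HPC-1 libraries measured 1046 to 2576 CPM. Cd48, which the LT-HSC gate excludes, had 0 counts in both Ang II Il27ra+/+ LT-HSC libraries and a mean of 0.585 CPM in Il27ra+/−.

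A pair of Il27ra−/− LT-HSC libraries stood apart. PBS replicate 2 measured 521.7 CPM of LT-HSC markers, 1848 CPM of progenitor markers (100.3 to 467 CPM in the other LT-HSC libraries) and 4035 CPM of 10 granulocyte markers, led by Mpo. Ang II replicate 2 had the next lowest LT-HSC marker sum, 1342 CPM, and 8100 CPM of granulocyte markers, led by S100a9, with 2816 CPM of 8 erythroid markers, led by Hba-a2. The other Ang II LT-HSC libraries held 38.4 to 97.8 CPM of granulocyte markers. PBS replicate 3 of the same genotype held 1369 CPM of granulocyte and 3095 CPM of erythroid markers. Results that rest on PBS replicate 2 and Ang II replicate 2 are therefore also given without both, an alternative planned with earlier results of these data known. That alternative keeps PBS replicate 3 with its granulocyte and erythroid markers.

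Library groups also differed in sex-linked RNA and depth. The Y-linked genes Ddx3y, Eif2s3y, Kdm5d and Uty summed to between 190.2 and 327 CPM in every Il27ra+/+ library. In LT-HSC after Ang II, replicates 3 and 4 of Il27ra+/− and of Il27ra−/− had 0 counts of them, and these 4 libraries are also the ones above 4 M counts. Sex and depth therefore cannot be told apart in this group. An intestinal list moved with genotype too. Of its 16 genes, 12 were tested, and 9 of them (among them Agr2, Dmbt1 and Muc2) were called lower in both Il27ra+/− and Il27ra−/− than in Il27ra+/+ LT-HSC after Ang II. Its summed level was 503.6 and 545 CPM in Il27ra+/+, 93.0, 97.4, 85.8 and 97.8 CPM in Il27ra+/−, and 103, 67.9, 92.5 and 111 CPM in Il27ra−/− LT-HSC after Ang II. Krt18 led the sum in every Il27ra+/− and Il27ra−/− library and Dmbt1 in both Il27ra+/+ libraries, and the goblet cell gene Muc2 had 0 counts in all 8 Il27ra+/− and Il27ra−/− libraries. The part of sex, depth and these transcripts in the genotype differences was not tested.

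MHC class I molecules display peptides from inside the cell on nearly every nucleated cell, where CD8+ T cells and natural killer cells read them. The proteasome cuts proteins to peptides, the TAP transporter carries the peptides into the endoplasmic reticulum, and a heavy chain with B2m binds them and goes to the surface. Interferons raise transcription of these genes, in part through IRF1, and NLRC5 drives class I promoters together with the RFX complex. Hematopoietic stem cells carry class I molecules like most blood cells.

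On a per-length scale (CPM per kb of exon), B2m was the most abundant member in both cell types, with 720.0 ± 82.5 in LT-HSC (SD, n = 17) and 708 ± 105 in HPC-1 (SD, n = 19). The classical heavy chains followed, H2-K1 at 309 ± 48.7 and H2-D1 at 226 ± 30.5 CPM per kb in LT-HSC, and 244 ± 35.7 and 199.6 ± 29.9 in HPC-1. The nonclassical H2-Q6 measured 119.6 ± 37.5 CPM per kb in LT-HSC and 63.6 ± 21.5 in HPC-1, above H2-Q7 at 73.4 ± 24.8 and 36.2 ± 11.99. These 5 genes kept the same order among themselves in both cell types, but the SDs of H2-K1 and H2-D1 overlap in HPC-1 and those of H2-Q6 and H2-Q7 in both cell types. H2-T23 (53.6 ± 8.78 CPM per kb in LT-HSC, 37.6 ± 9.06 in HPC-1) lay above Psmb8 (38.7 ± 15.0) in LT-HSC, within the SDs, and below it (62.2 ± 13.3) in HPC-1, where Psmb8 also lay above H2-Q7 and H2-T23 was level with it within the SDs. Tap1 (26.2 ± 6.15 and 30.2 ± 4.97) was below these in both cell types. H2-Q5 (21.7 ± 8.02 and 11.7 ± 3.65) and Nlrc5 (17.7 ± 5.28 and 14.0 ± 2.67) were lowest, with SDs that overlap that of Tap1 in LT-HSC. The order depends on the length used, which is that of all annotated exons of a gene together. Without it, in CPM, H2-K1 lay above B2m (908.2 against 619.2 in LT-HSC, 717.8 against 608.7 in HPC-1). H2-Q7 then lay above H2-Q6 (312.9 against 249.3 in LT-HSC, 154.2 against 132.5 in HPC-1). The per-length ranks pool all libraries of a cell type and did not hold in every group. In Il27ra+/+ LT-HSC after Ang II, H2-Q5 (33.6 CPM per kb) lay above Tap1 (31.1). In Il27ra+/− HPC-1 after Ang II, Tap1 (32.0) lay above H2-Q7 (29.7).

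The first question is how the members differed between genotypes after Ang II. In LT-HSC the nonclassical H2-Q genes and Nlrc5 were lower in Il27ra−/− than in either other genotype, by up to 2.52-fold, while H2-D1 and B2m differed little. All 10 members had a negative log2 fold change in Il27ra−/− against Il27ra+/+, with a median of −0.51 beside 0.14 over all genes, and against Il27ra+/− with a median of −0.39 beside 0.01. These comparisons share the Il27ra−/− libraries and were chosen with their results known.

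H2-K1 and H2-D1 are the classical heavy chains that present peptides to CD8+ T cells. In LT-HSC after Ang II, H2-K1 measured 1040 and 1090 CPM in Il27ra+/+, 932, 998, 984 and 1081 CPM in Il27ra+/−, and 705, 571, 879.8 and 923 CPM in Il27ra−/−. Every Il27ra−/− library lay below every library of both other genotypes, with replicate 2 lowest. The log2 fold change was −0.46 (SE 0.16) against Il27ra+/+ and −0.38 (SE 0.14) against Il27ra+/−, and −0.35 and −0.27 without PBS replicate 2 and Ang II replicate 2. H2-D1 measured 562 and 584 CPM in Il27ra+/+, 508, 567, 679 and 706 CPM in Il27ra+/−, and 436, 549, 569.8 and 617 CPM in Il27ra−/−. These groups overlapped, with log2 fold changes of −0.07 (SE 0.18) and −0.18.

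B2m, the light chain that every classical and nonclassical heavy chain needs, measured 572 and 695 CPM in Il27ra+/+, 541, 712, 647 and 592 CPM in Il27ra+/−, and 536, 580.3, 561 and 527 CPM in Il27ra−/−. The groups overlapped, and the log2 fold changes of Il27ra−/− were −0.19 (SE 0.15) and −0.17 (SE 0.12).

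H2-Q6 and H2-Q7 encode Qa-2, a nonclassical molecule that reaches the surface with a lipid anchor. H2-Q6 measured 396 and 318 CPM in Il27ra+/+ LT-HSC after Ang II, 284, 312, 299.9 and 303 CPM in Il27ra+/−, and 164, 119, 202 and 178 CPM in Il27ra−/−. H2-Q7 measured 405.3 and 405.7 CPM in Il27ra+/+, 336, 350.3, 357 and 478 CPM in Il27ra+/−, and 151, 123, 258 and 235 CPM in Il27ra−/−. For both genes all 4 Il27ra−/− libraries lay below all 6 others, and replicates 1 and 2, the shallower pair, were the lowest for both. The same held within Il27ra−/− for H2-K1, H2-D1, H2-Q5 and Nlrc5. For H2-Q6 the log2 fold change was −1.10 (SE 0.19; 2.14-fold lower) against Il27ra+/+ and −0.85 (SE 0.16) against Il27ra+/−, and for H2-Q7 it was −1.07 (SE 0.25) and −0.99 (SE 0.21). Without PBS replicate 2 and Ang II replicate 2 of Il27ra−/−, H2-Q6 stood at −0.98 and −0.74 and H2-Q7 at −0.92 and −0.84.

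H2-Q5, annotated as a polymorphic pseudogene, measured 52.3 and 54.6 CPM in Il27ra+/+, 29.1, 38.9, 30.8 and 55.6 CPM in Il27ra+/−, and 12.5, 14.5, 26.1 and 30.1 CPM in Il27ra−/−. The Il27ra−/− libraries lay below both Il27ra+/+ libraries and overlapped with Il27ra+/−. Its log2 fold change was −1.33 (SE 0.32; 2.52-fold lower) against Il27ra+/+ and −0.88 (SE 0.27) against Il27ra+/−, or −1.21 and −0.75 without the pair of libraries that stood apart. H2-T23 encodes Qa-1, the ligand of the inhibitory receptor CD94/NKG2A on natural killer cells. It measured 177 and 164 CPM in Il27ra+/+, 162, 179.9, 173 and 206 CPM in Il27ra+/−, and 138, 133, 135 and 139.9 CPM in Il27ra−/−, where the 4 libraries were close together and below the rest (log2 fold change −0.31, SE 0.17, and −0.39, SE 0.14).

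Nlrc5, which drives transcription of class I genes, measured 238 and 211 CPM in Il27ra+/+ LT-HSC after Ang II, 135, 176, 129 and 226 CPM in Il27ra+/−, and 114, 70.8, 119 and 125 CPM in Il27ra−/−. Each Il27ra−/− library lay below all libraries of the other genotypes, by only a few CPM from Il27ra+/− replicate 3 (129 CPM) to Il27ra−/− replicate 4 (125 CPM). The log2 fold change was −1.06 (SE 0.22; 2.08-fold lower) against Il27ra+/+ and −0.64 against Il27ra+/−, and −0.92 and −0.50 without PBS replicate 2 and Ang II replicate 2.

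Tap1, a subunit of the peptide transporter, measured 167 and 174 CPM in Il27ra+/+, 121, 127, 186 and 178 CPM in Il27ra+/−, and 108, 129, 116 and 131 CPM in Il27ra−/−. Il27ra−/− lay below Il27ra+/+ and overlapped with Il27ra+/−, and the log2 fold changes were −0.48 (SE 0.25) and −0.34. Psmb8, a catalytic subunit of the immunoproteasome, measured 97.9 and 203 CPM in Il27ra+/+, 103, 110.3, 115 and 153 CPM in Il27ra+/−, and 88.9, 113, 108 and 98.1 CPM in Il27ra−/−. The Il27ra+/+ replicates lay far apart for Psmb8, and the groups overlapped. Its log2 fold change against Il27ra+/+ was −0.54 (SE 0.38).

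**Figure D1:**
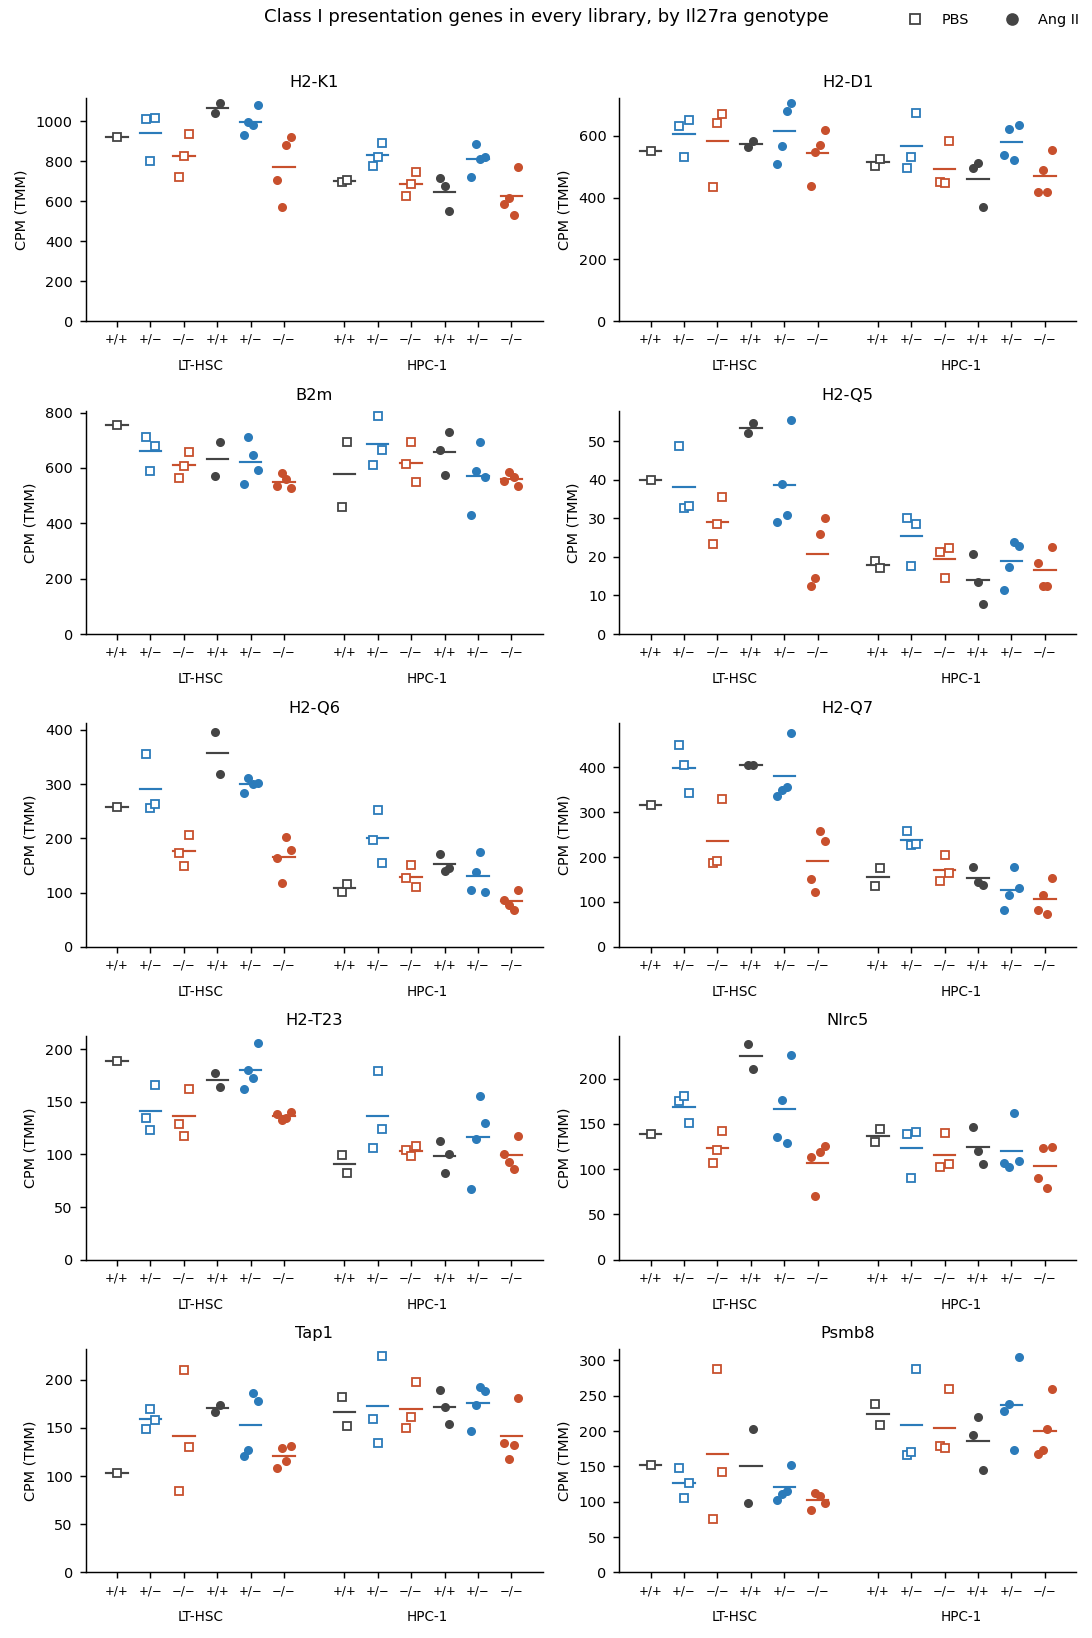
Expression of the 10 members in each of the 36 libraries, in CPM after TMM scaling, by cell type, agent and Il27ra genotype. Open squares are PBS, filled circles are Ang II and bars are group means; in LT-HSC after Ang II, H2-Q6 spans 119 to 202 CPM in Il27ra−/− and 284 to 396 CPM in the other genotypes.

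As background to a contrast that the choice of members used, edgeR called 277 of 16365 genes (1.69%) between Il27ra−/− and Il27ra+/+, 185 higher and 92 lower, and 4 of the lower ones were the members H2-Q5, H2-Q6, H2-Q7 and Nlrc5. The count depended on the fit: 5 members by DESeq2 (790 genes), 1 by limma-voom (100 genes, 0 higher) and 0 in a fit on the compared groups only (32 genes, 6 higher). Leaving out an Il27ra+/+ library leaves 1 library in that group, so no counts are given for it. With 1 Il27ra−/− library left out, 2 members were called without replicate 1 (150 genes) and 3 without replicate 2, 3 or 4 (333, 98 and 121 genes). Without PBS replicate 2 and Ang II replicate 2 there were 4 (713 genes). Groups did not overlap for 7 members (H2-K1, H2-Q5, H2-Q6, H2-Q7, H2-T23, Nlrc5 and Tap1), each lower in Il27ra−/−, where 10.2% of all genes showed that pattern. Between Il27ra−/− and Il27ra+/−, edgeR called 0 genes (0%), with 426 genes and 6 members at an unadjusted p under 0.05, DESeq2 called 2 genes including 1 member, and limma-voom called 0. There 5 members did not overlap (H2-K1, H2-Q6, H2-Q7, H2-T23 and Nlrc5), beside 0.953% of all genes. A setting chosen after seeing the data kept the 6 Ang II LT-HSC libraries under 4 M counts, all with Y-linked counts and 2 per genotype. Its Il27ra−/− libraries were replicates 1 and 2, of which replicate 2 belongs to the pair that stood apart. There the log2 fold change of Il27ra−/− against Il27ra+/+ was −1.93 for H2-Q5, −1.28 for H2-Q6, −1.51 for H2-Q7 and −1.23 for Nlrc5, with 29 genes called, 3 of them members. With summed Y-linked expression as a covariate over all libraries these values were −1.56, −1.11, −1.28 and −1.16, and 181 genes were called, 4 of them members.

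Il27ra+/− LT-HSC stood close to Il27ra+/+ after Ang II for most members. The median log2 fold change was −0.12 beside 0.09 over all genes, and the values ran from −0.46 for H2-Q5 to 0.11 for H2-D1. H2-Q6 was the one member whose groups did not overlap (−0.24, SE 0.19), where 9.37% of all genes were lower and 13.2% higher in every Il27ra+/− library. Of all genes, edgeR called 136 (0.831%), 100 of them higher, and 0 were members. Members were also 0 with DESeq2 (436 genes, 288 higher), limma-voom (68 genes, 0 higher) and a fit on the compared groups only (37 genes, 5 higher). With 1 Il27ra+/− library left out, 53 to 113 genes were called. No member had an unadjusted p under 0.05.

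After PBS, the LT-HSC comparison that has replicates in both groups is Il27ra−/− against Il27ra+/−. H2-Q6 measured 356, 255 and 264 CPM in Il27ra+/− and 173, 149 and 207 CPM in Il27ra−/−. H2-Q7 measured 450.4, 404.5 and 343 CPM in Il27ra+/− and 186, 191 and 329 CPM in Il27ra−/−. Nlrc5 measured 175, 180.4 and 151 CPM in Il27ra+/− and 107, 121 and 143 CPM in Il27ra−/−. For these 3 genes every Il27ra−/− library was below every Il27ra+/− library, beside 3.02% of all genes, with log2 fold changes of −0.75 (SE 0.18), −0.79 (SE 0.25) and −0.47 (SE 0.22). Without PBS replicate 2 and Ang II replicate 2 of Il27ra−/− they were −0.64, −0.66 and −0.46. The single library labelled Il27ra+/+ has no replicate, and its Il27ra level lay below the Il27ra+/− libraries, next to the highest Il27ra−/− library. This library measured 257 CPM of H2-Q6, 316 CPM of H2-Q7 and 139 CPM of Nlrc5.

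H2-K1 (−0.21), H2-D1 (−0.08), B2m (−0.13), H2-Q5 (−0.40), H2-T23 (−0.08) and Tap1 (−0.19) overlapped between these PBS groups. Psmb8 turned on 1 library: it measured 75.1, 288 and 142 CPM in Il27ra−/−, the highest of them PBS replicate 2, which also carried the progenitor markers. Its log2 fold change was 0.39 (SE 0.36) with that library and −0.23 without it and Ang II replicate 2. Over all members the median was −0.20 beside −0.02 for all genes. EdgeR called 0 genes and DESeq2 1 gene, no member, limma-voom 0, and 653 genes and 3 members had an unadjusted edgeR p under 0.05.

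In HPC-1 after Ang II, H2-Q6 had the largest log2 fold change of Il27ra−/− against both other genotypes. It measured 171, 139.6 and 145 CPM in Il27ra+/+, 105, 138, 175 and 102 CPM in Il27ra+/−, and 86.0, 77.5, 68.8 and 104 CPM in Il27ra−/−. All 4 Il27ra−/− libraries lay below the Il27ra+/+ ones and overlapped with Il27ra+/−, with log2 fold changes of −0.88 (SE 0.21) and −0.62 (SE 0.19). H2-Q7 measured 178, 143 and 138 CPM in Il27ra+/+, 82.6, 115, 179 and 130.2 CPM in Il27ra+/−, and 81.9, 115, 72.5 and 154 CPM in Il27ra−/−. For H2-Q7 the groups overlapped (−0.56, SE 0.24, against Il27ra+/+).

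Against Il27ra+/+ in HPC-1 after Ang II, the log2 fold changes of the other 8 members ran from −0.31 for Tap1 to 0.20 for H2-Q5, with a median over all 10 of −0.17 beside 0.00 for all genes, and 2.3% of all genes had every Il27ra−/− library below every Il27ra+/+ library. Against Il27ra+/− all 10 values were negative, H2-K1 at −0.37 (SE 0.13), with a median of −0.25 beside −0.01, and 0 members were separate, beside 0.75% of all genes. H2-K1 and H2-D1 were higher in every Il27ra+/− than in every Il27ra+/+ library, by 0.30 (SE 0.15) and 0.31 (SE 0.16), beside 3.24% of all genes (3.05% in the other direction). EdgeR called 0 genes in each of these 3 HPC-1 comparisons, with 661, 375 and 975 genes at an unadjusted p under 0.05 in the order given. DESeq2 called 2, 0 and 2 genes, none of them members. Limma-voom called 47 genes with 2 members, then 0 and 11 genes with no member.

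After PBS in HPC-1, H2-Q6 and H2-Q7 were highest in Il27ra+/−. H2-Q6 measured 102 and 116 CPM in Il27ra+/+, 196, 252 and 154 CPM in Il27ra+/−, and 127, 152 and 109.5 CPM in Il27ra−/−. H2-Q7 measured 136 and 177 CPM, then 257, 226 and 229 CPM, then 148, 204 and 164 CPM. Il27ra+/− was separate from both other genotypes for both genes, with log2 fold changes of 0.87 (SE 0.25) and 0.59 (SE 0.29) over Il27ra+/+, and −0.63 (SE 0.22) and −0.47 (SE 0.25) for Il27ra−/− against it. H2-K1 and H2-T23 were also higher in Il27ra+/− than in Il27ra+/+ with no overlap, by 0.23 and 0.58, where 12.1% of all genes were higher and 11.6% lower in that way, and H2-K1 lower in Il27ra−/− than in Il27ra+/− by 0.28.

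Il27ra−/− against Il27ra+/+ in PBS HPC-1 gave values from −0.25 for Nlrc5 to 0.24 for H2-Q6, with a median of 0.05 beside 0.00, and none of the members was separate, beside 14.4% of all genes that were lower without overlap. Against Il27ra+/− all 10 were negative, with a median of −0.24 beside −0.01 and separate groups in the lower direction in 3.25% of all genes. Il27ra+/− against Il27ra+/+ had a median of 0.24 beside 0.01. EdgeR called 2 (0.0152%), 0 and 0 genes in these comparisons, no member, with 865, 151 and 631 genes at an unadjusted p under 0.05. DESeq2 called 25, 0 and 6 genes and limma-voom 8, 0 and 0, again no member.

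Whether the genotype difference itself differed between cell types or agents was fitted as a difference of differences. These 6 fits contain the genotype values that chose the members, so they are a description too, and 0 members were called in any. For Il27ra−/− minus Il27ra+/+ after Ang II in LT-HSC minus HPC-1, H2-Q5 stood at −1.57 (SE 0.50) and Nlrc5 at −0.81 (SE 0.32), and 9 of 18013 genes (0.05%) were called and 1776 had an unadjusted p under 0.05. DESeq2 called 66 and limma-voom 3 genes there, no member. For Il27ra−/− minus Il27ra+/− the H2-Q7 difference between cell types was −0.73 (SE 0.33), with 0 genes called and 529 at an unadjusted p under 0.05. In HPC-1 the Ang II minus PBS difference of H2-Q6 was lower by 1.12 (SE 0.33) in Il27ra−/− and by 1.13 (SE 0.33) in Il27ra+/− than in Il27ra+/+, with 0 genes called (451 and 605 at an unadjusted p under 0.05). The Ang II minus PBS differences between Il27ra−/− and Il27ra+/−, within LT-HSC and within HPC-1, had 0 genes called and 414 and 169 at an unadjusted p under 0.05. In these last 5 fits DESeq2 called 0 or 1 genes and limma-voom 0.

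The total of the 6 heavy chains shows the same genotypes on 1 scale. In LT-HSC after Ang II it was 2624 ± 10.6 CPM in Il27ra+/+ (SD, n = 2), 2512 ± 239.7 CPM in Il27ra+/− (SD, n = 4) and 1828 ± 314 CPM in Il27ra−/− (SD, n = 4). H2-Q5, H2-Q6 and H2-Q7 together made up 31.1 ± 1.88% of that total in Il27ra+/+, 28.6 ± 0.963% in Il27ra+/− and 20.4 ± 2.66% in Il27ra−/−. The share was 27.3% or more in all 6 libraries of the first 2 genotypes and at most 23.5% in Il27ra−/−, so the groups did not overlap. It is built from members chosen by genotype differences, so this separation restates the choice and nothing is read from it. After PBS the share was 30.2 ± 3.72% in Il27ra+/− and 22.1 ± 2.87% in Il27ra−/− LT-HSC (SD, n = 3 each). HPC-1 had shares of 21.0 ± 1.80% (Il27ra+/+, n = 3), 15.3 ± 3.28% (Il27ra+/−, n = 4) and 14.6 ± 1.37% (Il27ra−/−, n = 4) after Ang II (SD). After PBS the order differed, with 17.8 ± 1.80% (n = 2), 23.3 ± 3.30% (n = 3) and 20.1 ± 2.995% (n = 3) in the same order of genotypes. All 10 members together took 0.344% of counts in LT-HSC and 0.265% in HPC-1.

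**Figure D2:**
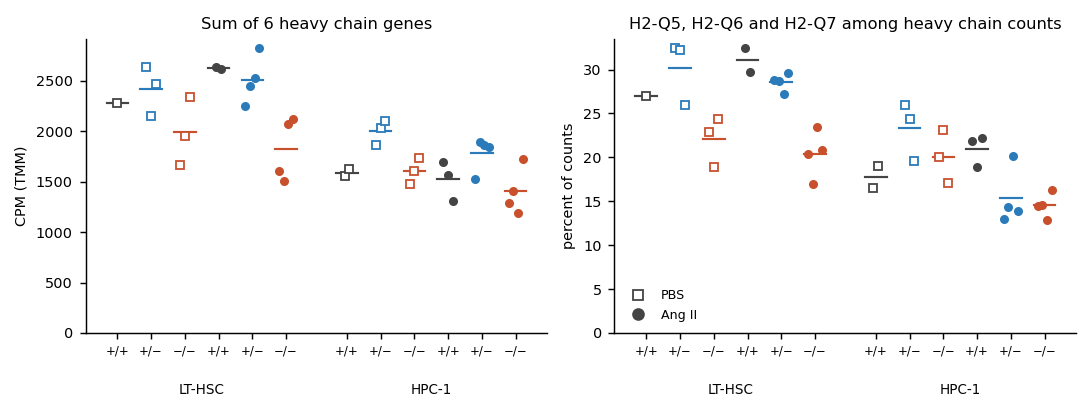
Left, the sum of the 6 heavy chain genes in CPM; right, the percentage of that sum from H2-Q5, H2-Q6 and H2-Q7, by cell type, agent and Il27ra genotype. Each mark is a library and bars are means; in LT-HSC after Ang II the share lies at 16.99 to 23.5% in Il27ra−/− and at 27.3 to 32.4% in the other genotypes.

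**Figure D3:**
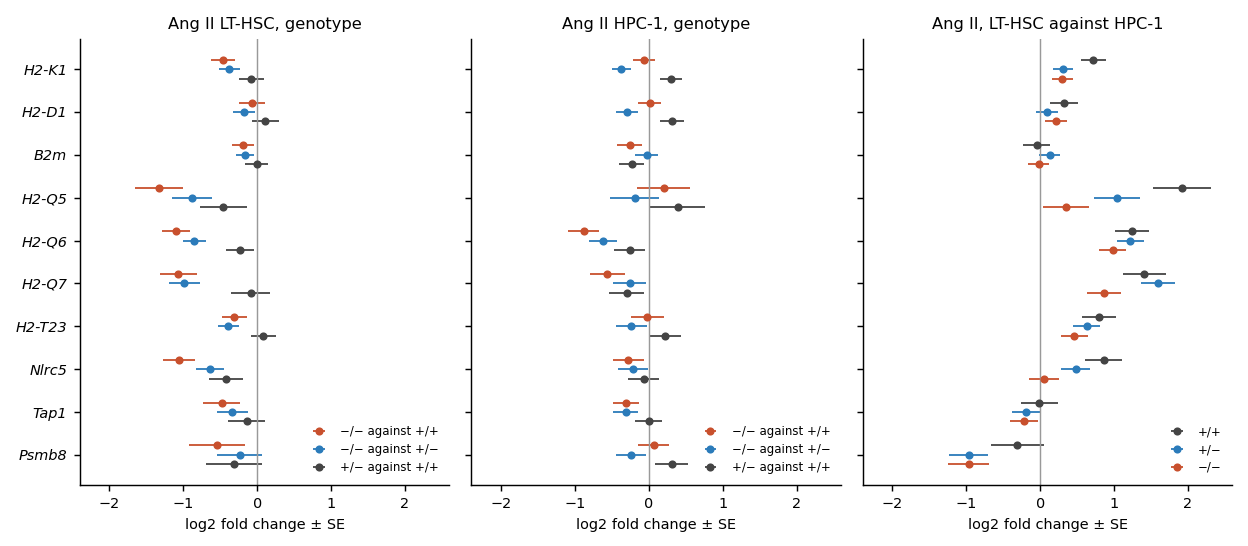
Log2 fold change of each member with its standard error, for the genotype comparisons in LT-HSC and in HPC-1 after Ang II, and for LT-HSC against HPC-1 after Ang II in each genotype. In LT-HSC, H2-Q5, H2-Q6, H2-Q7 and Nlrc5 lie lowest for Il27ra−/− against Il27ra+/+, between −1.33 and −1.06.

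Whether 2 weeks of Ang II itself altered these genes was asked within each genotype. The choice of members is not stated to have used this contrast, which shares its libraries with the genotype comparisons. No member passed the test in LT-HSC or HPC-1. In Il27ra+/− LT-HSC the members had a median log2 fold change of −0.02 beside −0.04 for all genes, and the highest was H2-T23 at 0.32 (SE 0.15). In Il27ra−/− LT-HSC the median was −0.18 beside −0.01, with Psmb8 lowest at −0.72 (SE 0.33). That Psmb8 value rested on PBS replicate 2 and was −0.16 without it and Ang II replicate 2. LT-HSC of Il27ra+/+, with 1 PBS library, was not tested.

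In HPC-1, the Ang II medians were −0.06, −0.14 and −0.16 in Il27ra+/+, Il27ra+/− and Il27ra−/−, beside −0.00, −0.00 and 0.01 for all genes. H2-Q6 was highest in Il27ra+/+ at 0.49 (SE 0.25), and H2-Q7 lowest in Il27ra+/− at −0.91 (SE 0.23) and in Il27ra−/− at −0.70 (SE 0.23). With no filter on low counts the H2-Q7 value in Il27ra+/− was called by edgeR (adjusted p = 0.00692). EdgeR called 0 of all genes in each of the 5 agent comparisons. At an unadjusted p under 0.05 there were 806 and 150 genes in LT-HSC (Il27ra+/−, Il27ra−/−) and 420, 519 and 244 in HPC-1, with 1 and 1, then 0, 2 and 2 members. DESeq2 called 0 and 1, then 1, 4 and 1 genes, none of them members, and limma-voom called 0.

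The comparison of LT-HSC with HPC-1 asks where along early hematopoiesis the members are highest. Its LT-HSC libraries are those of the genotype comparisons by which the members were chosen, so members picked for high values in Il27ra+/+ LT-HSC after Ang II would also stand high there against HPC-1. The comparison in Il27ra+/+ after Ang II is therefore a description. The same may hold in Il27ra+/−, whose LT-HSC libraries after Ang II all lay above those of Il27ra−/− for H2-Q6, H2-Q7 and H2-T23. Calls and adjusted p-values of members in Il27ra+/− are thus not independent of the choice. In Il27ra−/− the choice may also bear on the values. After Ang II, H2-Q6 and H2-Q7 stood higher in LT-HSC in every genotype, and Psmb8 was lower in LT-HSC of Il27ra+/− and Il27ra−/−. In Il27ra+/+ mice 6 members were among the genes called higher in LT-HSC (5.37% of all genes, with 5% lower), and nothing is read from that count. In Il27ra+/− mice 4 were higher (7.59% of all genes) and Psmb8 lower (7.26%). In Il27ra−/− mice 2 were higher (7.04%) and Psmb8 lower (5.48%). The members had median log2 fold changes of 0.76, 0.39 and 0.26, beside 0.00, 0.02 and 0.06 for all genes. The difference between genotypes in these cell type contrasts is the difference of differences given above.

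H2-Q6 stood higher in LT-HSC in all 3 genotypes after Ang II, by 1.24 (SE 0.23) in Il27ra+/+, 1.22 (SE 0.18, edgeR adjusted p = 2.05e-05) in Il27ra+/− and 0.98 (SE 0.18, adjusted p = 0.000323) in Il27ra−/−. Each LT-HSC library lay above each HPC-1 library of its genotype, as in 15.3%, 10.6% and 10.7% of all genes (16.7%, 7.77% and 8.28% in the other direction) in the order Il27ra+/+, Il27ra+/−, Il27ra−/−. H2-Q7 stood higher by 1.41 (SE 0.29), 1.59 (SE 0.23, edgeR adjusted p = 2.63e-05; 3.01-fold) and 0.86 (SE 0.23, adjusted p = 0.0112). Its groups were separate in Il27ra+/+ and Il27ra+/−, while in Il27ra−/− the LT-HSC libraries (123 to 258 CPM) overlapped HPC-1 (72.5 to 154 CPM). H2-Q7 in Il27ra−/− was no longer called without LT-HSC replicate 3 (0.69, edgeR adjusted p = 0.0622) or without HPC-1 replicate 3 (0.72, adjusted p = 0.0641), or in libraries under 4 M counts (0.63, adjusted p = 0.166).

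H2-Q5 stood higher in LT-HSC by 1.92 (SE 0.39; 3.77-fold) in Il27ra+/+ and 1.04 (SE 0.31, edgeR adjusted p = 0.0169) in Il27ra+/− after Ang II. The LT-HSC libraries at 52.3 and 54.6 CPM stood above the HPC-1 libraries at 20.7, 13.6 and 7.79 CPM in Il27ra+/+. In Il27ra+/− the call was lost without LT-HSC replicate 4 (0.84, edgeR adjusted p = 0.0881) or HPC-1 replicate 1 (0.89, adjusted p = 0.0661), and in libraries under 4 M counts (0.96, adjusted p = 0.192). H2-T23 stood higher by 0.79 (SE 0.23) in Il27ra+/+ and 0.63 (SE 0.18, edgeR adjusted p = 0.0137) in Il27ra+/−, each with separate groups. In Il27ra+/+ the value was 0.74 and 0.85 without LT-HSC replicate 1 or 2, which leaves 1 library in that group. It was 0.72 and 0.80 without HPC-1 replicate 2 or 3, and 0.83 in a fit on the compared groups only. No call is read from these Il27ra+/+ values. In Il27ra+/− the call was lost without HPC-1 replicate 1 (edgeR adjusted p = 0.0689), in libraries under 4 M counts (0.161) and in a fit on the compared groups only (0.0527).

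H2-K1 stood higher in LT-HSC of Il27ra+/+ mice by 0.72 (SE 0.17), with 1040 and 1090 CPM against 714, 675 and 550.2 CPM in HPC-1. Nlrc5 stood higher there by 0.86 (SE 0.25), with 238 and 211 CPM against 146, 120.3 and 105.5 CPM. Both genes were separate between the cell types, like 15.3% of all genes. The Nlrc5 value was 0.76 and 0.94 without LT-HSC replicate 1 or 2, which leaves 1 library in that group. Without HPC-1 replicate 3 it was 0.74, and no call is read from these fits.

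Psmb8 went the other way. In Il27ra+/− mice after Ang II it measured 103, 110.3, 115 and 153 CPM in LT-HSC and 228, 239, 174 and 305 CPM in HPC-1, and in Il27ra−/− mice 88.9, 113, 108 and 98.1 CPM against 167, 173, 203 and 259 CPM. LT-HSC lay below HPC-1 in every library of both genotypes. The log2 fold change was −0.97 in both, with an SE of 0.27 (edgeR adjusted p = 0.0149) and 0.28 (adjusted p = 0.0178). The Il27ra+/− call was lost without LT-HSC replicate 2 (edgeR adjusted p = 0.0528) or HPC-1 replicate 4 (0.0547), and the Il27ra−/− call without LT-HSC replicate 1 (0.0641) or 4 (0.0592) or HPC-1 replicate 4 (0.0587), and in libraries under 4 M counts (0.0536). Without PBS replicate 2 and Ang II replicate 2 of Il27ra−/− LT-HSC, 4 members were called in Il27ra−/− as all genes called went from 2257 to 3073, among them Psmb8 at −1.04 (edgeR adjusted p = 0.00186), H2-Q6 at 1.10 (1.21e-05) and H2-Q7 at 1.01 (0.00131).

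After PBS the call of H2-Q7 in Il27ra+/− depended on the fit: the main edgeR fit (filter, TMM, all groups in the model) called no member in either genotype. H2-Q7 was called in edgeR fits on the compared groups only (0.83, adjusted p = 0.00309), without a filter (0.0145), with a replicate block (0.0365) and with upper-quartile scaling (0.0461), and by DESeq2 (0.015) and limma-voom (0.0407). Psmb8 was called without a filter (−0.72, edgeR adjusted p = 0.0280). In Il27ra+/− mice the values ran from −0.71 for Psmb8 to 0.77 for H2-Q7, with a median of 0.15. All genes had a median of 0.16 there, 0.28 by DESeq2, 0.25 by upper-quartile scaling, 0.45 without a filter and −0.00 in a fit on the compared groups only, where 2 members were called. Of all genes 3.84% were called in each direction, 4 members and 3966 of 18013 genes had an unadjusted p under 0.05, and DESeq2 (1818 genes) and limma-voom (3271 genes) each called 2 members. In Il27ra−/− mice the values ran from −0.29 for Psmb8 to 0.58 for H2-Q5 with a median of 0.25 beside 0.00, with 0.877% of all genes called higher and 0.00555% lower. There 1 member and 1948 genes had an unadjusted p under 0.05. DESeq2 called 0 members (447 genes, 430 higher) and limma-voom 4 (2646 genes, 1521 higher, beside 159 by edgeR). With 1 library left out, edgeR called 1164 genes without LT-HSC replicate 2, 48 without HPC-1 replicate 3 and 0 in the other fits. Without PBS replicate 2 and Ang II replicate 2, the Psmb8 value was −0.90 and was called (edgeR adjusted p = 0.0464) among 1414 genes.

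Other genes of the pathway were followed by lists. Of 7 genes for peptide transport and loading, 3 were lower in LT-HSC than in HPC-1 after Ang II in Il27ra+/+ (Tapbpl at −1.74, Pdia3 at −0.65 and Erap1 at −0.67; list median −0.65). In Il27ra+/− the chaperones Calr (−1.77) and Canx (−0.68) and the disulfide isomerase Pdia3 (−0.62) were lower (median −0.49), and in Il27ra−/− Tap2 (−0.76), Calr (−1.54), Canx (−0.66) and Pdia3 (−0.67; median −0.66). After PBS, Tap2 (−0.80) and Calr (−1.38) were lower in Il27ra+/− (median −0.55) and 0 of 7 in Il27ra−/− (median −0.34). Between genotypes and between agents, edgeR called 0 of the 7 in every comparison. Across the genotype and agent comparisons their medians ran from −0.43 to 0.22.

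Of the 4 immunoproteasome and PA28 genes besides Psmb8, Psme1 (−0.67) and Psme2 (1.99-fold) were lower in Il27ra+/− LT-HSC than HPC-1 after Ang II (median −0.55), and 0 of 4 were called in the 4 other cell type comparisons (medians −0.17 to −0.55). Among the 3 constitutive catalytic subunits, Psmb6 was lower in Il27ra+/− (−0.62) and Psmb7 in Il27ra−/− (−0.78) after Ang II. Among the genotype comparisons, Psme1, an activator subunit, was called lower in Il27ra−/− than Il27ra+/+ LT-HSC after Ang II (−0.96, SE 0.23; list median −0.46). No other gene of these 2 lists was called between genotypes or agents.

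Of 12 transcription factors that bind class I promoters or relay interferon signals, Irf1 was called lower in the same genotype comparison (−0.89, SE 0.21; list median −0.03). It measured 95.0 CPM on average in Il27ra+/+, 71.7 in Il27ra+/− and 50.9 in Il27ra−/−. Between cell types after Ang II, Irf2 was higher in LT-HSC in all 3 genotypes (1.16, 0.62 and 0.73), Creb1 lower in Il27ra+/+ (−0.66), and Irf1 lower in Il27ra−/− (−0.56). After PBS, Creb1 was lower in Il27ra+/− (−0.72) and 0 of 12 were called in Il27ra−/−. The list medians of these cell type comparisons lay between −0.06 and 0.16.

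Of 12 other class I and class I-like heavy chains, 10 were tested. H2-Q4 (1.21), H2-M3 (2.04) and Mr1 (1.94) were higher in Il27ra+/+ LT-HSC than HPC-1 after Ang II, and H2-Q4 (1.07), H2-T22 (0.67) and H2-T24 (1.06) in Il27ra+/−, with list medians of 0.15 and 0.67. None was called in Il27ra−/− or after PBS (medians 0.47, 0.53 and 0.52), or between genotypes or agents. H2-Q4, a neighbour of H2-Q5, had means of 247, 221 and 154 CPM in Il27ra+/+, Il27ra+/− and Il27ra−/− LT-HSC after Ang II.

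Markers of the gates and of other cell types gave the following counts beside the cell type comparison. All 10 LT-HSC markers were higher and 5 of 6 progenitor markers lower in LT-HSC in every comparison but that of PBS Il27ra−/−, which had 7 and 0. Of the sort gate genes Ly6a, Kit, Slamf1 and Cd48, Slamf1 was higher in all 5, Cd48 lower in the same 4 and Ly6a higher in Il27ra+/− after Ang II. Of 10 granulocyte markers, 4, 4 and 3 were lower after Ang II in the order Il27ra+/+, Il27ra+/−, Il27ra−/−, and 4 and 0 after PBS. The sum of this list was 2433 to 7264 CPM in HPC-1, led by Mpo. Of 12 dendritic cell and macrophage genes, Cd74 and H2-Eb1 were higher in LT-HSC in Il27ra+/+ after Ang II, those with H2-Aa in Il27ra+/− (Csf1r lower), H2-Eb1 in Il27ra−/−, and Cd74 after PBS in Il27ra+/− (Csf1r lower). Their sum was 22.9 to 175.5 CPM in LT-HSC and 33.3 to 152 CPM in HPC-1, led by Cd74, H2-Ab1 or Csf1r.

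Lymphoid and erythroid markers were low or not called. None of the B cell markers was called, their sum stayed at 2.72 to 20.6 CPM, led by Cd79b or Ebf1, and Cd79a had 0 counts in the Il27ra+/+ libraries of both cell types after Ang II. Nkg7, of 9 T and NK cell genes, was lower in LT-HSC in the 3 Ang II comparisons, and the list summed to 3.48 to 45.3 CPM. None of 8 erythroid genes was called, with sums from 9.91 to 3095 CPM. Of 7 endothelial genes, 4 (Vwf among them, which is also an LT-HSC marker) were higher in LT-HSC and Pecam1 lower in 4 comparisons, and Vwf alone was called in PBS Il27ra−/−. Their sum was 162 to 251 CPM in HPC-1 and 215 to 1245 CPM in LT-HSC. Of the intestinal genes, Krt18 was higher in LT-HSC in 4 comparisons. Outside the intestinal list, no marker gene of any of these lists was called between genotypes or agents. Their part in the members' differences was not tested.

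Members varied together to different degrees. Over the 36 libraries, with each cell type centred, Pearson's r between log2 CPM was 0.86 for H2-Q6 and H2-Q7, 0.78 for H2-K1 and H2-Q5, 0.77 for H2-Q7 and Nlrc5, and 0.74 for H2-K1 and H2-D1. Psmb8 went with H2-D1 (0.66) and Tap1 (0.62) and not with H2-Q6 (−0.08) or B2m (0.01). These values include the genotype differences described above, and libraries share genotype, agent and depth. The 5 genes whose profile was most like the mean of the members, of 9603 candidates, were Il27ra (r = 0.77), Tgtp2 (0.75), H2-Q4 (0.73), Gm12250 (0.70) and Cblb (0.69). Within LT-HSC their r was 0.74, 0.70, 0.81, 0.81 and 0.72, and within HPC-1 it was 0.83, 0.83, 0.63, 0.53 and 0.68. Genotype was not removed from these profiles, and the members were chosen by differences between Il27ra genotypes. A gene whose level follows genotype, such as Il27ra itself, can rank high by that choice, so nothing is read from the ranks.

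All members but B2m and Nlrc5 lie in the MHC on chromosome 17 (mm10, GENCODE M21). H2-K1 (ENSMUSG00000061232) lies at chr17:33996017-34000347 on the minus strand. Tap1 (ENSMUSG00000037321, chr17:34187553-34197225) and Psmb8 (ENSMUSG00000024338, chr17:34197721-34201454) are plus-strand neighbours. H2-D1 (ENSMUSG00000073411) lies at chr17:35262730-35267499. H2-Q5 (ENSMUSG00000055413, chr17:35394126-35397800), H2-Q6 (ENSMUSG00000073409, chr17:35424850-35430055) and H2-Q7 (ENSMUSG00000060550, chr17:35439155-35443773) follow each other on the plus strand. H2-T23 (ENSMUSG00000067212) lies at chr17:36029773-36032855 on the minus strand. B2m (ENSMUSG00000060802) is at chr2:122147686-122153083 and Nlrc5 (ENSMUSG00000074151) at chr8:94434356-94527272, both on the plus strand. Il27ra (ENSMUSG00000005465) lies on the same chromosome as Nlrc5, at chr8:84030294-84042589 on the minus strand. The part of this linkage in the genotype values of Nlrc5 was not tested.

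Reads of the H2-Q genes may be shared, so their separate values are uncertain. Of all 75-base stretches in the annotated transcripts, 21.2% of those of H2-Q5, 17.9% of H2-Q6 and 17% of H2-Q7 also occur in a transcript of another gene. For H2-Q5 the main partner is H2-Q7 (16.4%), for H2-Q6 it is H2-Q7 (9.8%) and for H2-Q7 it is H2-Q10 (8.88%). The share was 5.91% for H2-T23, 5.4% for H2-D1, 3.1% for H2-K1 and 0 for B2m, Nlrc5, Tap1 and Psmb8. With H2-Q5, H2-Q6 and H2-Q7 summed into 1 gene before the fit, 273 genes were called in the Ang II LT-HSC comparison of Il27ra−/− with Il27ra+/+, among them 2 members; 3 of the 4 called members had become 1.

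Promoter windows are shown for H2-Q6 and H2-Q7, which varied most alike, and for H2-K1 and B2m, which differed less between genotypes. RefSeq promoter windows on GRCm38.p6, from 250 bases before to 50 bases after the start, were at hand for 8 of the 10 members, not for H2-Q5 and Nlrc5. Capitals mark matches, on either strand, to letters known from class I promoters: CCAAT (the Y box of the NF-Y factor), TGACG (part of the cyclic AMP element) and GAAANNGAA (similar to the interferon element bound by IRFs). The windows are chr17:35424600-35424899 (plus strand) for H2-Q6, chr17:35438905-35439204 (plus) for H2-Q7, chr17:34000284-34000583 (minus) for H2-K1 and chr2:122147437-122147736 (plus) for B2m.
H2-Q6: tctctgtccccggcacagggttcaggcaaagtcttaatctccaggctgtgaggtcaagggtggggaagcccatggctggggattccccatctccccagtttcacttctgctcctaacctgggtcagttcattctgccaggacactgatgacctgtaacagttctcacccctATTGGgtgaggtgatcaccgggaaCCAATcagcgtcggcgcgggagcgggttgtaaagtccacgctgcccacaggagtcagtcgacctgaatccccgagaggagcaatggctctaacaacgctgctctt
H2-Q7: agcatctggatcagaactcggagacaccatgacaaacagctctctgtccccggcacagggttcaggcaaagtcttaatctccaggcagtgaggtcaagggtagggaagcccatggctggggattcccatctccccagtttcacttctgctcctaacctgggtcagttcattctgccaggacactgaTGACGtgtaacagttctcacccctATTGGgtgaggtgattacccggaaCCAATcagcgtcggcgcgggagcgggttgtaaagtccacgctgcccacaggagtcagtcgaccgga
H2-K1: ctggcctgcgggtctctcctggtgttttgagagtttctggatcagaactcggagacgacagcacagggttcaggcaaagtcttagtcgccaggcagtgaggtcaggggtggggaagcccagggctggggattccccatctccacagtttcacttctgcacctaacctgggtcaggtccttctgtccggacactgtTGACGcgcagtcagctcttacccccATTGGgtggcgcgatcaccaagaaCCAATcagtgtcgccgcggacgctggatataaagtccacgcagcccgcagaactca
B2m: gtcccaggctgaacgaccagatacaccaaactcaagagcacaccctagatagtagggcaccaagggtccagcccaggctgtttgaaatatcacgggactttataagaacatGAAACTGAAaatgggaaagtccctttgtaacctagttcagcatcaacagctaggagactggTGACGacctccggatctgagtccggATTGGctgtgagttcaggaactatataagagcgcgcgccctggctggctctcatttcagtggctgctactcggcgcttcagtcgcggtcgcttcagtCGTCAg
H2-Q6 and H2-Q7 share 254 of 261 aligned bases (97.3%), and H2-K1 and H2-D1 share 217 of 242 (89.7%). The windows of H2-K1, H2-D1, H2-Q6 and H2-Q7 all hold the same 21-base run, acagggttcaggcaaagtctt. CCAAT was found in 7 of the 8 members with a window (37.4% of 32851 promoters), TGACG in 5 (20.8%; H2-K1, H2-D1, B2m, H2-Q7 and Tap1) and GAAANNGAA in 2 (8.56%; B2m and H2-T23). Other spellings of an interferon element were not searched, so a window without GAAANNGAA may still hold such an element. The windows of H2-K1, H2-D1, H2-Q6 and H2-Q7 all hold the run cagtttcacttctg, which GAAANNGAA does not match on either strand. Whether this run acts as an interferon element was not tested. A match of letters describes the sequence and shows no binding.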

How the data were processed

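The deposited table holds expected counts per gene, made by the authors with RSEM (1.2.31 in the deposit, v1.2.12 in the paper) from paired 75-base reads aligned to mm10 with Bowtie2 according to the deposit and with STAR according to the paper. Every value was a whole number (0 were not), so nothing was rounded. Symbols came from GENCODE M21 for 37570 of 38887 identifiers with 99.63% of counts, and each of the 10 symbols had exactly 1 identifier. Members and lists were chosen with earlier results of these data known. Genes were kept by filterByExpr within each cell type and in all libraries for cell type comparisons. EdgeR 4.0.16 (TMM, quasi-likelihood F test, all groups of the fit in 1 model) gave fold changes, standard errors and p-values adjusted by Benjamini-Hochberg at 0.05, and DESeq2 1.42.0 and limma-voom 3.58.1 in R 4.3.3 repeated them. The same replicate number was checked as a pair in each genotype comparison. Only HPC-1 after PBS, Il27ra−/− with Il27ra+/−, had every pair above r = 0.1 (0.12 to 0.48, 3 pairs), and a fit with replicate as a block called 0 members there. Lists by name covered peptide transport and loading, immunoproteasome and PA28, constitutive proteasome, transcription factors, other heavy chains, and markers of the gates and of other cell types. No pair of libraries within a group was a duplicate.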

Additional observations from a re-analysis of the deposited data

Results flagged for a closer look

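Nlrc5 measured 162.5 CPM in Ang II Il27ra+/− HPC-1 replicate 3, apart from the 102.5, 106.6 and 109.4 CPM of the other replicates. This was 1 of 40 groups of 4 libraries examined for a value standing apart at a chance of about 1 in 20 each.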

How the results depend on the processing

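Member calls depended on the fit in part, and the cause was not tested. For Il27ra−/− against Il27ra+/+ in LT-HSC after Ang II, 4 members were called (277 genes, 185 higher). With the compared groups only there were 0 (32 genes, 6 higher) and with limma-voom 1 (100 genes, 0 higher). With the H2-Q genes summed there were 2 (273 genes), where 3 called genes made 1, so no call was lost. With an Il27ra−/− library left out there were 2 or 3. Against Il27ra+/− there were 0, with DESeq2 1 and without a filter 2 (249 genes). In HPC-1 after Ang II, Il27ra−/− against Il27ra+/+ went from 0 to 2 by limma-voom (47 genes) and 1 without a filter (30 genes), and Ang II against PBS in Il27ra+/− from 0 to 1 without a filter (11 genes). Between cell types after Ang II, Il27ra−/− went from 3 (2257 genes) to 5 (DESeq2, 2721 genes), 6 (limma-voom, 5290 genes) and 1 (libraries under 4 M counts, chosen after seeing the data, 662 genes), and 2 to 4 with a library left out. Il27ra+/− went from 5 (2676 genes) to 3 (libraries under 4 M, 1124 genes, and with H2-Q summed, where again 3 called genes made 1) and 3 to 6 with a library left out. Il27ra+/+, given as a description, went from 6 to between 4 and 6 with an HPC-1 library left out. After PBS, Il27ra−/− went from 0 to 4 by limma-voom (159 to 2646 genes) and 1 without PBS replicate 2 and Ang II replicate 2 of LT-HSC (1414 genes). PBS Il27ra+/− went from 0 (1382 genes) to 2 (DESeq2 with 1818, compared groups only with 2144, limma-voom with 3271 and no filter with 1764 genes) and 1 (H2-Q summed, upper quartile, and the block for pairing by replicate). Every other comparison had 0 members in all fits with a library left out. Some signs turned. H2-T23 in Il27ra−/− LT-HSC, Ang II against PBS, was 0.00 and became −0.14 (limma-voom), −0.00 (no filter), −0.01 (replicate block), −0.10 (without the pair above) and −0.10 to 0.14 with a library left out. Psmb8 in Il27ra−/− HPC-1, Ang II against PBS, went from −0.04 to 0.01 (under 4 M) and −0.18 to 0.16. Psmb8 between cell types went from −0.31 to between −0.93 and 0.11 in Ang II Il27ra+/+ and from −0.29 to between −0.90 and 0.07 in PBS Il27ra−/−. Among genotype values, which were not tested, Psmb8 in PBS LT-HSC, Il27ra−/− against Il27ra+/−, turned from 0.39 to −0.23 without that pair. Sign changes were counted over member values of the agent and cell type comparisons and the differences of differences, including those given as a description. There 85 of 1422 changed sign under the alternatives and 143 of 1470 with a library left out. The largest were 0.37 and 0.31, and 0 of them were called.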
